A study of Homo sapiens with 8 samples.

Results

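The regions described here are the accessible sites in and around 10 genes of the Notch pathway: the receptors NOTCH1 and NOTCH2, the ligands JAG1, JAG2, DLL1, DLL3 and DLL4, and the target genes HEY1, HEY2 and HES1. Every ATAC-seq peak of the 8 libraries that overlapped one of these genes, extended by 20 kb on either side, was taken, and overlapping peaks were merged over the libraries. This gave 103 regions, of 285909 merged regions on chromosomes 1 to 22 and X. The series follows the established human embryonic stem cell line RUES2 on its way to cardiomyocytes by ATAC-seq, in which the transposase Tn5 inserts sequencing adapters into accessible DNA. Cells were collected at 4 stages: hESC on day 0, MES (mesoderm) on day 2, CP (cardiac progenitors) on day 5 and CM (cardiomyocytes) on day 14. Each stage has 2 libraries. All cells came from the unmodified RUES2 line, differentiated as a monolayer. The day 0 cells had already been given a low dose of CHIR-99021, an activator of Wnt signalling, before they were collected. A higher dose followed from day 0, the Wnt inhibitor Xav-939 was given from day 3, no inhibitor was present from day 5, and medium with the supplement B27 was used from day 7. Whether the replicates of the ATAC-seq came from separate differentiations is not given in the sources used here, so the tests measure the spread between these libraries, which may be technical.

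Notch signalling passes between touching cells. A ligand of the Jagged or Delta-like family on a cell binds a Notch receptor on its neighbour, the receptor is cut, and its intracellular part enters the nucleus, joins the DNA-binding protein RBPJ and switches on repressor genes of the HES and HEY families. In the heart the pathway is best known from the endocardium and the endothelium, where it acts in valve formation and in the growth of the ventricular wall. JAG1 and NOTCH2 are the genes of Alagille syndrome, which includes heart defects, NOTCH1 is linked to aortic valve disease, and HEY2 is a marker of the compact ventricular myocardium.

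The sequences printed here come from the HES1 and HEY2 starts, chosen because the RBPJ pattern TGGGAA was found there, and from a pair of distal regions that differed among the stages. The RefSeq table of GRCh38.p14 promoters held 7 of the 10 genes (all but DLL1, DLL3 and HEY1). Of the 300 bases around each start, HES1 and HEY2 held 2 matches to TGGGAA on either strand, and the other 5 genes held 0. For comparison, 24.0% of 35116 promoters held at least 1 match, and 3.8% held 2 or more. The HES1 matches begin 84 and 70 bases before the start. The first of them covers bases 194136064 to 194136069 of chromosome 3, and the strongest ATAC-seq summit of the HES1 promoter region, at base 194136066, lies inside it. The HEY2 matches begin 213 and 3 bases before the start, and the second runs past the start, so it is not in the bases shown. The 250 bases upstream of each start are given on the plus strand, which is the coding strand of both genes, with the RBPJ pattern in capitals. They lie at chr3:194135898-194136147 and chr6:125749382-125749631.
HES1 upstream: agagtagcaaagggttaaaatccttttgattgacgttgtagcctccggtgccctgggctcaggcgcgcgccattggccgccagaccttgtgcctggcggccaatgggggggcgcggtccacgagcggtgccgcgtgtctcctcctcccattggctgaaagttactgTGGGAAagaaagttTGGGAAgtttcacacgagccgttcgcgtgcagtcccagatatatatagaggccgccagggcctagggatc
HEY2 upstream: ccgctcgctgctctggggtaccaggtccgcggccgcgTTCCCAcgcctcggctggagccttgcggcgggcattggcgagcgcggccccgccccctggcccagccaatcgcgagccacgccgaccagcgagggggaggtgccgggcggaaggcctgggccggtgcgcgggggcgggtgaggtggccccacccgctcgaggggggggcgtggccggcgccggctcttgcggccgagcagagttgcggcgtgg
The 200 bases around the strongest summit in NOTCH2 intron 29 (chr1:119920427-119920626, plus strand of hg38, the opposite of the gene's strand) and in the last exon of HEY2 (chr6:125759214-125759413, plus strand) follow. Capitals in the NOTCH2 window mark a match to a GATA pattern (the letters GATA after A or T and before A or G), then a match to the RBPJ pattern, both on the reverse strand. The HEY2 window holds no match to any pattern searched and consists of 200 coding bases of exon 5.
NOTCH2 intron 29: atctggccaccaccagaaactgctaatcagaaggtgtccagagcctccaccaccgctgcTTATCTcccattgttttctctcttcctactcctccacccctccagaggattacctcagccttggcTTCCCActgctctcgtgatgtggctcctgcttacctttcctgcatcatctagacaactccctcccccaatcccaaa
HEY2 exon 5: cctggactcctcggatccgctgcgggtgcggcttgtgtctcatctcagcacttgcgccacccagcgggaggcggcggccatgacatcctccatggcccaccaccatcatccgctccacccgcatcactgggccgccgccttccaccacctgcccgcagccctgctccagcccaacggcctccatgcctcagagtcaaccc

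The 8 libraries held between 55777 and 156179 peaks on the chromosomes used, with the fewest in CM replicate 2. Each peak is given as its fold, the pileup at the summit over the local background, and as −log10 of its q-value. The lists hold no read counts, so the depth of the libraries is known only through their mean background pileup, which lay between 2.54 and 4.62. A region without a peak in a library did not pass the caller's q-value of 0.01 there, which is not the same as closed chromatin. Markers followed the stage labels in part. Of 6 hESC marker genes, 5 had a peak at the promoter in each hESC and MES library and 1 in each CM library (POU5F1 had no region in any library). The marker left in CM was SOX2, with folds of 6.01 and 6.19 there, against 4.42 and 4.90 in hESC. Of 6 cardiomyocyte markers, 1 had a promoter peak in each hESC library, and 5 and 4 had one in the CM libraries. MYH7 had no region, and the promoter regions of TNNT2 and MYH6 differed among the stages. The marker with peaks in hESC was ACTN2, with folds of 9.22 and 8.49 there and 6.99 and 7.26 in CM. All 5 MES markers had a promoter peak in all 8 libraries. Of these, 1 was called by limma, MESP1, and its folds were lowest in MES (4.18 and 3.93). Of 6 CP markers, 3 and 4 had a promoter peak in the hESC libraries, 4 and 5 in the CP libraries and 6 in each CM library. Endothelial cells use Notch genes strongly and could be present in the cultures. Of 6 endothelial markers, 4 had promoter peaks in MES replicate 1 and 2 in every other library, with summed folds between 13.3 and 20.1. CDH5 and EMCN had no region, 0 of the 3 tested differed among the stages by limma (2 at an unadjusted p under 0.05), and KDR alone had a peak in all 8 libraries.

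The peak lists of cardiomyocytes held fewer regions of the Notch loci, but this was not so with lists of equal length. Of the 103 regions, 49 and 62 had a peak in the hESC replicates, then 50 and 64 in MES, then 47 and 56 in CP, then 41 and 29 in CM. The number followed the length of the peak lists, since replicate 2 had both the longer list and more regions in hESC, MES and CP, and the shorter list and fewer regions in CM. With a peak in both replicates as the criterion, 46 regions were open in hESC, 42 in MES as well as CP, and 27 in CM, which is 44.7%, 40.8%, 40.8% and 26.2% of them. Over all merged regions the shares were 29.6%, 31.4%, 23.9% and 14.8%. The decline from hESC to CM was thus present genome-wide. With lists cut to the 55777 strongest peaks of each library, the count was 25 for hESC, 26 for MES, 24 for CP and 24 for CM. The lower count in CM was thus not found at equal length. The cut makes all lists equally long by rule and leaves that of CM replicate 2 whole. It drops only weaker peaks of the other libraries, so these counts do not measure whether sites were lost in CM. The share of all merged regions was not counted at this length.

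**Figure D1:**
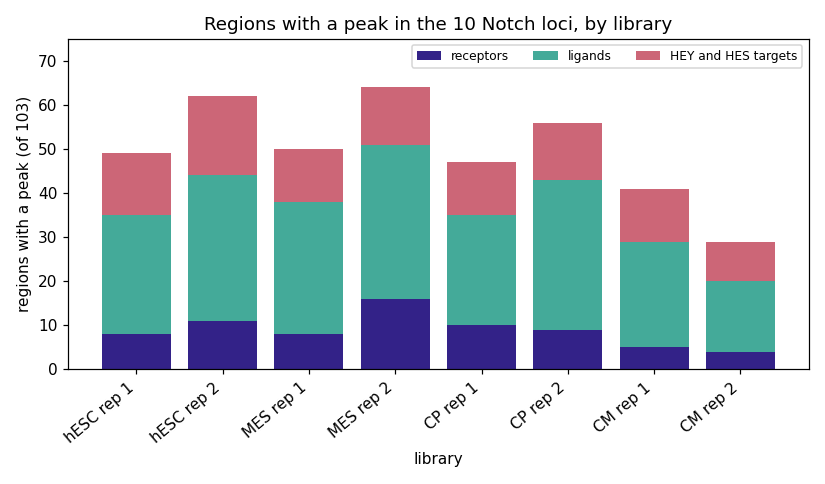
Number of the 103 regions with a peak (y axis, a count) in each of the 8 libraries (x axis), split into the 2 receptor loci, the 5 ligand loci and the 3 target loci. The bars run from 29 regions in CM replicate 2 to 64 in MES replicate 2, and the ligand loci make up the largest share of every bar.

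Some of the sites had a peak in every library. A peak was present in all 8 libraries in 23 of the 103 regions, or 22.3%, against 9.83% of all merged regions. The windows were drawn around genes and so hold gene starts by rule, which the share over all merged regions does not allow for. The higher share is therefore no result about the Notch loci. Of the 23 regions, 7 were promoters of the members, and 10 lay at the start of another gene, such as SEC16A beside NOTCH1, TIMM50 beside DLL3 and CHAC1 beside DLL4. The promoters of NOTCH1, HEY1 and HEY2 count under both, since a non-coding gene starts there too. The other 9 lay at neither a member promoter nor another gene start. At the other end, 35 regions had a peak in a single library, against 40.7% of all merged regions, and 11 of these were found in MES replicate 2 alone. Outside the 9 promoter regions, 23 regions lay in introns, 7 in coding exons, 1 in an untranslated exon, 4 in the gene span outside the canonical transcript, 27 upstream and 32 downstream of the gene. The GC content of the 200 bases around the summits had a median of 62.5%, against 52.5% for all merged regions, and 73.0% for the member promoters.

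**Figure D2:**
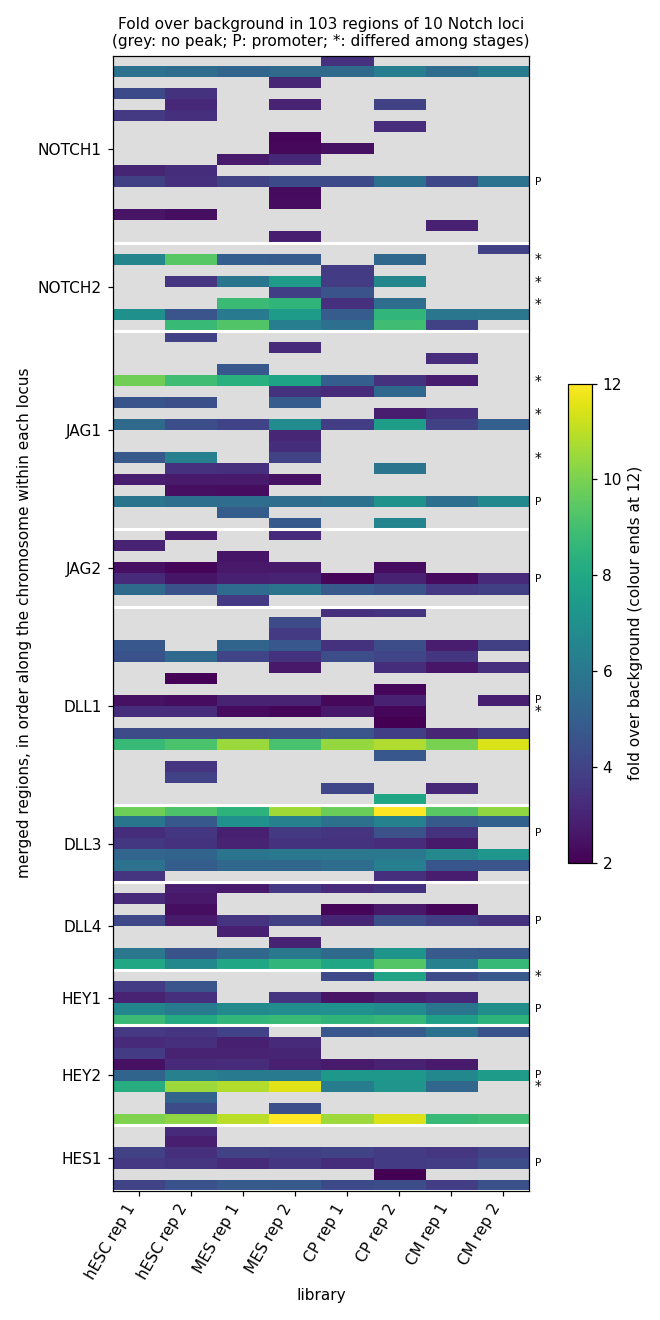
Fold over background (colour, ending at 12) of the 103 regions (rows, in chromosome order within each locus) in the 8 libraries (columns), with grey where a library had no peak, P at promoter regions and a star at regions that differed among the stages. Rows filled across all columns are the 23 regions with a peak in every library, and the most grey is seen in NOTCH1 and in both CM columns.

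A promoter region was found for 9 of the 10 genes. All 9 had a peak in both replicates of hESC, MES and CP, 7 had one in both CM replicates, and 0 of 9 passed the test. Differences were tested with limma on log2 fold over the 169532 regions that had a peak in at least 2 libraries, with Benjamini-Hochberg adjustment over all of them and a threshold of 0.05. Libraries were centred on the regions with a peak in all 8. A library without a peak was given the 1st percentile of fold of its own list, so a difference against such a library rests on that value. Of all promoter regions of protein-coding genes, 905 of 15835 or 5.72% differed among the stages. Of the 9 member promoters, 1 had an unadjusted p under 0.05 in the test over the 4 stages. In bulk cultures, fewer cells with an open site and a site less open in each cell cannot be told apart.

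NOTCH1, a receptor, had promoter folds of 3.89 and 3.40 in the hESC replicates, then 3.98 and 4.25 in MES, then 4.23 and 5.64 in CP, and 4.18 and 5.81 in CM. All later libraries lay above both hESC libraries, but the replicates of CP and CM lay far apart, and the limma test over the stages gave an adjusted p of 0.180. NOTCH2, the other receptor, had no region within 1 kb of its start in any library. The 1001 bases around that start have 3 copies of at least 98% identity elsewhere on chromosome 1, the longest of 1010 bp, while the other 9 starts have 0 on the assembled chromosomes. Reads with a mapping quality of 30 or less had been removed, and their part in the missing NOTCH2 promoter peak was not tested.

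JAG1 had the highest promoter folds of the ligands, at 5.83 and 5.60 in hESC, then 5.59 and 5.56 in MES, then 5.76 and 7.10 in CP, and 5.63 and 6.65 in CM (adjusted p = 0.325, limma). The other ligand promoters were weaker. JAG2 had folds of 3.18 and 2.56 in hESC, then 2.88 and 2.98 in MES, then 2.18 and 2.92 in CP, and 2.30 and 3.24 in CM (adjusted p = 0.344). DLL4, the ligand of arterial endothelium, ranged from 2.71 to 4.35, with both extremes in replicate 2 libraries, of hESC and of CP (adjusted p = 0.707). DLL3, a divergent ligand that inhibits Notch in its own cell, ranged from 2.87 to 4.48 in 7 libraries and had no peak in CM replicate 2 (adjusted p = 0.662). DLL1 ranged from 2.22 to 2.98 in 7 libraries and had no peak in CM replicate 1 (adjusted p = 0.101). At all 5 ligand promoters, the replicates of at least 1 stage lay farther apart than the means of the stages with a peak in both replicates. At DLL1, both MES libraries lay above both hESC libraries, and the replicates lay farthest apart in CP.

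HEY1 and HEY2 had promoters as accessible as that of JAG1. HEY1 had folds of 6.59 and 6.16 in hESC, then 6.78 and 6.91 in MES, then 7.06 and 6.81 in CP, and 5.90 and 6.94 in CM (adjusted p = 0.712, limma). HEY2 had folds of 5.24 and 6.35 in hESC, then 6.13 and 6.10 in MES, then 7.34 and 7.32 in CP, then 6.68 and 7.48 in CM. The 4 HEY2 values of CP and CM lay above the 4 of hESC and MES, without a difference among the stages that passed the test (adjusted p = 0.136). HES1 had folds of 3.67 and 3.49 in hESC, then 3.19 and 3.59 in MES, then 3.29 and 3.78 in CP, and 3.82 and 4.38 in CM. Both CM values were the highest, with an adjusted p of 0.284 by limma. The HES1 promoter passed the same test under 2 alternatives, with an adjusted p of 0.00902 with lists of equal length and of 0.00225 on pileup over the library's mean background.

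Ordered by the median fold over libraries with a peak, the promoters ran from DLL1 (2.84) and JAG2 (2.90) through DLL3 (3.53), HES1 (3.63), DLL4 (3.69) and NOTCH1 (4.21) to JAG1 (5.70), HEY2 (6.51) and HEY1 (6.79). The ranges over libraries overlapped between every pair of neighbours in this order. The place of HES1 depended on the measure. Taken as the pileup over the library's mean background in place of the local background, its median was 32.3, beside 32.7 for JAG1, 32.6 for HEY2 and 39.6 for HEY1, while DLL1, JAG2 and DLL3 stayed between 12.6 and 15.3.

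Outside the promoter regions of the members, 9 regions differed among the stages, spread over 5 of the loci. They were 3 of the 15 tested receptor regions, 4 of 37 ligand regions and 2 of 16 target regions. Not all were away from gene starts. The region at ADAM30 lies at the start of that gene. The region 0.5 kb upstream of the DLL1 start lies within the 1 kb used for promoters, but a nearer region was taken as the DLL1 promoter. These 9 are 13.2% of the 68 tested regions, against 26.4% of all regions tested, and 20 of the 68 had an unadjusted p under 0.05. With absent peaks set to a common value after centring, an alternative chosen after the data were seen, 8 regions were called, 6 of them among the 9. The 3 not called under it were JAG1 intron 5, the region 0.5 kb upstream of the DLL1 start and HEY2 exon 5. Their values are given with the others, with both adjusted p-values. With absent peaks at a fold of 1, 13 regions were called, and NOTCH2 intron 29 and the HEY1 region at 10.3 kb were the only 2 of the 9 among them. With lists of equal length, 8 of the 9 could be tested and 4 were called, in NOTCH2 intron 29, at ADAM30, in JAG1 intron 2 and in JAG1 exon 26.

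In NOTCH2, a site in intron 29 opened in mesoderm. The region (chr1:119920130-119920776, 149.1 kb into the gene) had no peak in hESC, folds of 8.81 and 8.54 in MES, 3.40 and 5.56 in CP, and no peak in CM. MES averaged 8.68 ± 0.193 (SD, n = 2) and CP 4.48 ± 1.53 (SD, n = 2), and the ranges did not overlap. The log2 difference of MES over hESC was 1.64 ± 0.27 (SE, adjusted p = 0.00234), and from MES to CP the site fell by 0.96 on the log2 scale (adjusted p = 0.0455, both limma). Without centring, the rise was called (adjusted p = 0.00921) and the fall was not (adjusted p = 0.0936, both limma). The test over the stages gave an adjusted p of 0.00262, 0.00558 with the common value, and it passed in each of the 8 fits without a library. The window around its summit is the NOTCH2 sequence printed above, with a GATA and an RBPJ match. GATA patterns occurred in 27.2% of all merged regions and in 10 of the 103 regions here.

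A nearby region downstream of NOTCH2 (chr1:119909930-119910558, 159.2 kb from the start) had a similar time course. It had no peak in hESC replicate 1 and a fold of 3.56 in replicate 2, 5.88 and 7.48 in MES, 3.79 and 6.60 in CP, and no peak in CM. It was higher in MES than in hESC by 0.98 ± 0.28 (log2, SE, adjusted p = 0.0319, and 0.06085 without centring, limma). This call over the stages (adjusted p = 0.0364, 0.0272 with the common value) passed in 2 of the 8 fits without a library, with adjusted p-values up to 0.137, and gave 0.0988 with lists of equal length. The libraries without which it passed were CP replicates 1 and 2.

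A further region downstream of NOTCH2 had its highest values in hESC and no peak in CM. It lies 173.2 kb from the NOTCH2 start and at the start of ADAM30, a gene for a metalloprotease (chr1:119896110-119896623). Its folds were 6.53 and 9.40 in hESC, then 4.97 and 4.90 in MES, then absent and 5.32 in CP, and absent in both CM replicates. CM was lower than hESC by a log2 difference of -1.28 ± 0.29 (SE, adjusted p = 0.00738, and 0.0141 with the common value, limma). Over the stages the adjusted p was 0.0148, 0.0373 with the common value, and 0.173 without hESC replicate 2. The only NOTCH2 region with a peak in all 8 libraries, in intron 16, had folds between 4.63 and 8.60 (adjusted p = 0.782).

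NOTCH1 showed another pattern, with many weak sites and 0 of 9 tested regions called by limma, 3 having an unadjusted p under 0.05. Of its 17 regions, 8 had a peak in a single library. Beside the promoter, the only site with a peak in every library was the start of SEC16A, 62.8 kb from the NOTCH1 start. Regions with a peak in both hESC replicates and no other library numbered 6 of the 103, against 3.01% of all merged regions, and 4 of the 6 lay in or beside NOTCH1. Their hESC folds were 3.72 and 3.33 in intron 15, 3.03 and 3.31 in intron 2, 4.26 and 3.46 downstream of the gene, and 2.54 and 2.36 upstream of the start. All of these folds lay below the medians of the hESC lists, 5.07 and 4.62. The site upstream of the start was near their 1st percentiles of 2.62 and 2.39. The adjusted p-values of the 4 lay between 0.0983 and 0.214 (limma). The intron 15 site was called with the common value. For the other stages the counts were 1 region for MES (in NOTCH1 intron 2), 1 for CP (downstream of DLL1) and 0 for CM, against 2.76%, 0.729% and 1.05% of all merged regions.

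In JAG1, a site at the end of the gene lost accessibility during differentiation. The region (chr20:10637210-10638015, 36.2 kb from the start) lies over exon 26, the last exon, with its summit in the untranslated part. Its folds were 9.85 and 8.95 in hESC, then 8.35 and 7.80 in MES, then 4.99 and 3.47 in CP, and 2.78 and absent in CM. The values of hESC (9.40 ± 0.636, SD, n = 2) and MES (8.08 ± 0.390, SD, n = 2) all lay above those of CP (4.23 ± 1.08, SD, n = 2) and CM. CM was lower than hESC by a log2 difference of -1.46 ± 0.27 (SE, adjusted p = 0.00206, limma). The adjusted p over the stages was 0.00245, 0.0252 with the common value, at most 0.00986 in the 8 fits without a library, and 0.0863 with absent peaks at a fold of 1, where the call was lost.

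The remaining JAG1 calls were weaker. A site in intron 2, 9.4 kb from the start (chr20:10664406-10664749), had folds of 4.80 and 6.36 in hESC, a fold of 3.92 in MES replicate 2 and no peak in the other 5 libraries (adjusted p = 0.0360, 0.0216 with the common value, limma). It was called in 4 of the 8 fits without a library, and not without hESC replicate 2, CP replicate 2 or either CM replicate, where the adjusted p rose to at most 0.186. In intron 5, 21.1 kb from the start, CP replicate 2 had a fold of 2.81 and CM replicate 1 a fold of 3.40, with no peak elsewhere (adjusted p = 0.0450, 0.461 with the common value). A peak in 1 of 2 replicates of each stage is no measured change of a stage. A second site in intron 5, 19.1 kb from the start, had a peak in all 8 libraries with folds from 3.83 to 7.55 (adjusted p = 0.989), beside the falling site at the end of the gene.

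Among the Delta-like ligands and JAG2, a single region was called over the stages, at DLL1. It lies 0.5 kb upstream of the canonical DLL1 start (chr6:170291347-170291748), with folds of 3.29 and 3.27 in hESC, then 2.28 and 2.14 in MES, then 2.68 and 2.12 in CP and no peak in CM. MES was lower than hESC by a log2 difference of -0.67 ± 0.18 (SE, adjusted p = 0.0249, limma). In the fit, CM stood at the value given to absent peaks. Its log2 difference was 0.51 against CP and -0.0187 against hESC, so the fit holds no measured level in CM. The call over the stages (adjusted p = 0.0186) was lost with the common value (0.162) and without MES replicate 2 (0.0509). DLL3 had 7 regions, all tested, with 0 called by limma, 2 at an unadjusted p under 0.05 and 4 with a peak in all libraries. The strongest of them, with folds from 8.46 to 13.0, was the start of TIMM50, a gene of mitochondrial protein import, 18.2 kb upstream. In DLL3 exon 7 the folds were 5.28 and 5.23 in hESC, then 5.84 and 6.02 in MES, then 5.98 and 6.01 in CP, and 6.71 and 7.26 in CM (adjusted p = 0.0957). At DLL4, a site 12.7 kb downstream of its start had a peak in all libraries, with folds from 4.62 to 7.18 (adjusted p = 0.864). So did the start of CHAC1, with folds up to 9.33.

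At HEY1, a downstream site opened in cardiac progenitors and stayed open in cardiomyocytes. The region (chr8:79757327-79757933, 10.3 kb from the start) had no peak in hESC or MES, folds of 4.22 and 7.84 in CP, and 4.30 and 4.77 in CM. It was the only one of the 103 with a peak in the 4 later libraries and in none of the earlier ones, a pattern that 0.448% of all merged regions had. The log2 difference of CP over MES was 1.15 ± 0.29 (SE, adjusted p = 0.0259, limma), and that of CM over hESC was 1.03 ± 0.29 (SE, adjusted p = 0.0230). Without centring, neither contrast was called (adjusted p = 0.0781 and 0.1165, limma). The adjusted p over the stages was 0.00758, 0.0184 with the common value, at most 0.0310 in the 8 fits without a library, and 0.293 with lists of equal length. Its summit window held 2 matches to the RBPJ pattern, which was found in 26 of the 103 regions and in 20.8% of all merged regions.

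The other HEY1 sites did not follow it. A site 7.5 kb from the start had folds of 3.77 and 4.62 in hESC and no peak later. It was lower in MES than in hESC by a log2 difference of -0.76 ± 0.22 (SE, adjusted p = 0.0372, and 0.0891 without centring, limma). Its test over the stages gave 0.0565. A site 15.9 kb upstream was open throughout, with folds of 8.81 and 8.12 in hESC, then 8.60 and 8.80 in MES, then 8.50 and 8.68 in CP, and 7.65 and 8.48 in CM (adjusted p = 0.644). It was stronger than the HEY1 promoter in each library.

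At HEY2, the last exon was less accessible in cardiomyocytes than in hESC. The region in coding exon 5 (chr6:125758950-125759658, 9.7 kb from the start) had folds of 8.24 and 10.5 in hESC, then 10.9 and 11.5 in MES, then 6.20 and 7.21 in CP, and 5.31 and absent in CM. All 4 early libraries lay above all later ones. The MES values were the highest, but MES and hESC differed by a log2 value of 0.16 ± 0.24 (SE), which did not pass the test (adjusted p = 0.822, limma). CM was lower than hESC by a log2 difference of -0.98 ± 0.24 (SE, adjusted p = 0.0101, and 0.0806 with the common value, limma). Its adjusted p over the stages was 0.00723 and at most 0.0285 in the 8 fits without a library, but 0.120 with the common value and 0.0520 with lists of equal length. The exon 5 window of HEY2 is the coding sequence printed above.

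The HEY2 window also held the site with the highest single fold of the 103, 30.7 kb downstream of the start. Its folds were 10.1 and 10.3 in hESC, then 11.0 and 14.0 in MES, then 10.5 and 11.5 in CP, and 8.73 and 8.95 in CM (adjusted p = 0.622, limma). In CM, the starts of TIMM50 (9.45 and 10.3) and FAM120B (9.98 and 11.4) had higher folds in both replicates. Upstream of HEY2, sites at 3.8 kb and 2.7 kb before the start had peaks in the 4 hESC and MES libraries and in none of the later ones. Their folds ran from 2.88 to 3.73, with adjusted p-values of 0.452 and 0.464, and JAG1 intron 2 held the third region with this pattern, which 1.59% of all merged regions had. A site 20.7 kb upstream had folds of 3.67 and 3.56 in hESC, then 4.02 and absent in MES, then 4.70 and 4.88 in CP, and 5.74 and 4.52 in CM (adjusted p = 0.0868). Of the 8 tested HEY2 regions, exon 5 alone was called.

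At HES1, the 3 tested regions had a peak in all 8 libraries, 0 differed among the stages by limma and 0 had an unadjusted p under 0.05. The site 1.3 kb upstream had folds from 3.36 to 4.05 (adjusted p = 0.795) and the site 5.5 kb downstream of the start from 3.80 to 4.84 (adjusted p = 0.879). The other 3 HES1 regions each had a peak in a single library.

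Between neighbouring stages, few of the 68 tested regions changed. From hESC to MES, 2 were higher and 2 lower, against 6.47% and 6.02% of all regions. The higher ones were NOTCH2 intron 29 and the region downstream of NOTCH2, 159.2 kb from its start. From MES to CP, 1 was higher (HEY1, 10.3 kb) and 1 lower (NOTCH2 intron 29), against 2.09% and 5.0%. From CP to CM, 0 were called by limma, 9 had an unadjusted p under 0.05, and the background was 2.3% higher and 2.03% lower. The medians of the log2 differences of the 68 regions were -0.07, 0.08 and 0.23 for these steps, against -0.07, -0.03 and 0.16 over all regions tested. These medians depend on the values given to absent peaks, since a region without a peak in either stage was assigned a difference of -0.067, 0.077 and 0.31. Without the 4, 6 and 15 such regions, the medians were -0.06, 0.06 and 0.10.

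Between the ends of the course, 4 regions were called higher in CM than in hESC and 3 lower, against 6.27% and 9.68% of all regions, and CM and hESC share libraries with the steps above. The 3 lower ones were those at ADAM30, JAG1 exon 26 and HEY2 exon 5, of which HEY2 exon 5 was not called with the common value (adjusted p = 0.0806). Of the 4 higher ones, HEY1 (10.3 kb) was called with and without the common value. JAG1 intron 5 was not called with the common value. A region in JAG2 intron 2 was called with a log2 difference of 0.51 (adjusted p = 0.0339, limma) although neither CM library had a peak there, so this call is no measured gain (adjusted p = 0.352 with the common value). The start of FAM120B, 15.5 kb upstream of DLL1, was higher by 0.47 ± 0.15 (log2, SE, adjusted p = 0.0416, and 0.0698 with the common value). Centring moved CM against hESC by 0.22 on the log2 scale, and without it 0 regions were higher and 4 lower. The promoters showed this shift too. All 9 member promoters had a CM value above hESC after centring, by a median of 0.34, beside a median of 0.19 over all promoters, of which 76.9% lay above 0. DLL1 and DLL3 each lacked a peak in a CM replicate, so their CM values rest in part on the value given to absent peaks. With absent peaks at a fold of 1, the DLL1 difference was -0.29. Of the 9, 3 had an unadjusted p under 0.05 for CM against hESC and 0 were called by limma, against 4.72% higher and 1.53% lower among all promoters. For the single steps, 0 of the 9 promoters were called by limma as well, and 0, 0 and 2 had an unadjusted p under 0.05. Among all promoters, 0.253% were higher and 0.354% lower from hESC to MES, 0.208% in either direction from MES to CP, and 0.467% higher and 0.303% lower from CP to CM.

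Promoters of the rest of the pathway were open in most libraries as well. Of 30 further genes chosen by role (the receptors NOTCH3 and NOTCH4, RBPJ and its co-activators, the proteases that cut the receptor, the fringe enzymes that modify it, regulators of endocytosis and further targets), all 30 had a promoter region and 24 had a peak there in all 8 libraries. A single one, HES5, was called, against 5.72% of all promoters. HES5 had no peak in hESC replicate 1, folds of 2.26 in hESC replicate 2, 2.35 and 2.36 in MES, 2.63 and 2.99 in CP, and no peak in CM. Its adjusted p was 0.0407 (limma), and the call was lost with the common value. The fit put CM above CP by 0.27 and above hESC by 0.38 (log2), although neither CM library had a peak. That CM level is the value given to absent peaks, so the call is no measured change in CM. HEYL, the third HEY gene, had folds of 8.22 and 7.51 in hESC, then 8.67 and 8.87 in MES, then 8.53 and 8.46 in CP, and 5.05 and 5.93 in CM. Both CM values were the lowest, with an adjusted p of 0.331. RBPJ had promoter folds from 5.66 to 6.82 (adjusted p = 0.228), LFNG from 3.20 to 5.16 (adjusted p = 0.196) and the feedback inhibitor NRARP from 3.18 to 4.47 (adjusted p = 0.376).

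Other sequence patterns were counted in the 200 bases around the summits, on both strands. The cardiac NKX pattern TNAAGTG was found in 5 of the 103 regions and in 10.3% of all merged regions, the T-box pattern GGTGTGA in 7 and in 4.58%, and the octamer ATGCAAAT of pluripotency factors in 2 and in 1.65%. GATA matches in 10 regions are 9.71%, against the 27.2% of all regions, and the GC content of the member windows given above was higher than that of all regions. Among the 9 regions that differed among the stages, 2 held an RBPJ match, in HEY1 and NOTCH2, and 1 a GATA match. A match describes the letters in the window and not a bound factor.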

How the data were processed

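Per the methods, the authors mapped paired-end reads to hg38 with BWA (version 0.7.13 in the submitters' notes), discarded secondary alignments and those with a mapping quality of 30 or less, and took out duplicates (Picard). MACS2 (2.1.0) then called the peaks of single libraries at a q-value of 0.01, with reads shifted by 100 bp and extended to 200 bp, so that the pileup is centred on the cut site. The deposited fold, the ratio of the pileup to the local background at the summit, and the deposited −log10 p and −log10 q of each peak were used as given. The deposited display score, a rounded form of −log10 q, was not used. Pileup and background were recovered from the fold and −log10 p of a peak (100% of peaks within 0.001 on the −log10 scale).

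Peaks of the 8 libraries were merged where they overlapped. Positions and the canonical starts follow GENCODE 44, and a promoter region is the merged region nearest to a start, within 1 kb. The limma fit on log2 fold (pooled spread, all 8 libraries, stage as the only term) is described with the promoters. limma was used in place of a count test because the lists hold no counts. All tests were two-sided. The members and lists were chosen with earlier results of these data known. The regions named are the promoters and, per gene, up to 3 other regions with the smallest adjusted p at or under 0.05. Some regions were named after their values were seen. These were the HEY2 regions upstream and downstream, the sites with a peak in every library and those with peaks in hESC alone. HES5, HEYL, RBPJ, LFNG and NRARP were also named after their values were seen. No promoter was called, so no gene with a similar pattern was named.

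In 10 simulated data sets, each with 100 regions changed at each size among 169532, the fit recovered on average 27.4% of the regions changed by 2 on the log2 scale in CM (15% to 34%) and 2.3% of those changed by 1 (0% to 6%), so that an uncalled region may have changed. Unadjusted p-values under 0.05 were found in 5.42% of the unchanged regions. Apart from the planted regions, no region changed in these sets, while 26.4% of all tested regions were called in the data. The adjustment is stricter where few regions change, so these recovery rates do not carry over to the real fit. Replicate numbers did not pair the libraries: the correlations of deviations between stages ran from -0.12 to 0.192. Alternatives changed the centring, the value of absent peaks, the number of libraries with a peak, the −log10 q minimum (5), the list length (55777 peaks), the measure (pileup over mean background), the share of a region that a peak covers (50%) and the window (50 kb), and left out each library in turn. Alternatives with a common value for absent peaks were added after the data were seen. The fit ran in R 4.3.3 (limma 3.58.1), and the rest in Python 3.11.15 with pandas 2.3.3, numpy 2.4.6, scipy 1.17.1, matplotlib 3.10.9 and blastn 2.17.0.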

Additional observations from a re-analysis of the deposited data

How the results depend on the processing

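The number of regions that differed among the stages, 9 as reported, stayed between 7 and 13 under 7 alternatives and was 9, the same 9, with the replicate block. Counts hide which regions: of the 9, 2 were called with absent peaks at a fold of 1, 4 with equal lists and 6 with the common value. It was 0 of 23 when only regions with a peak in all 8 libraries were tested, 22 of 103 with a peak in at least 1 library and 31 on pileup over the mean background, which called 35.6% of all regions. MES against hESC (4 as reported) gave 2 without centring, 8 with absent peaks at a fold of 1, 0 for regions in all 8 libraries, 1 for regions in at least 4 and 11 on pileup. CP against MES (2) gave 0 without centring, 5 with a fold of 1, 0 in all 8 libraries, 4 in at least 1, 1 in at least 4, 1 with equal lists and 8 on pileup. CM against CP (0) gave 2 with a fold of 1, 6 in at least 1 library, 2 with equal lists and 2 on pileup. CM against hESC (7) gave 4 without centring (0 higher), 14 with a fold of 1, 3 in all 8 libraries, 12 in at least 1, 25 on pileup and 3 with 50% coverage. Promoter calls (0) rose to 1 with equal lists (HES1) and 2 on pileup (HES1 and HEY1). The call at HES5 went to 0 without centring, with a fold of 1, in all 8 libraries, in at least 4, with equal lists, with 50% coverage and with the common value, and the pathway count was 10 on pileup. Regions with a peak in both replicates numbered 25, 26, 24 and 24 in hESC, MES, CP and CM with equal lists, and 77, 71, 68 and 37 with windows of 50 kb. A peak in either replicate was found in 65, 72, 61 and 43.

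Without single libraries, the counts ran from 6 to 13 over the stages, 1 to 6 for MES against hESC (1 without MES replicate 2, and 2 without MES replicate 1 or either hESC replicate), 0 to 3 for CP against MES (0 without CP replicate 2 or either MES replicate, 1 without CM replicate 1), 0 to 2 for CM against CP (2 without CP replicate 1), 1 to 8 for CM against hESC (1 without hESC replicate 2, 2 without either CM replicate), 0 to 0 for the promoters and 0 to 1 for the pathway. The replicate block gave 4, 3, 0 and 7 regions for the contrasts in the same order. Since the replicate numbers did not pair the libraries, this is given as a count only. Directions reversed at 4 named regions: DLL1 promoter, CM minus hESC (-0.29 with a fold of 1, -0.68 on pileup), DLL3 promoter, CM minus MES (-0.48 and -0.63), HEY1 promoter, CM minus MES (-0.10 without centring), and the region upstream of DLL1, hESC minus MES (-0.0175 with equal lists). None of these was called under the alternative. The causes were not tested. Of 324 alternative values of named regions, 279 kept direction and side of the threshold, 36 were no longer called, 3 were newly called and 6 reversed.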
